A study of Mus musculus with 12 samples.

Results

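NMuMG is a mouse cell line of epithelial cells from the mammary gland of a normal animal. What is described here is the expression of this line with no ligand added, in spheroids given serum-free medium alone for 4 h. The 4 arrays labelled as serum-free for 4 h were chosen by that label, out of 12 arrays in all. The spheroids had grown for 6 days on a layer of Matrigel after 5000 cells had been seeded in each well, their medium was renewed on day 4, and 2 wells were pooled into each of the 4 biological replicates. The other 8 arrays, of spheroids given GDF11 or TGFB1, are not compared here. All 4 replicates come from 1 cell line, so the gland's other cell types were never plated, and Matrigel itself supplies basement membrane proteins and growth factors that an RNA measurement does not see.

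The mammary epithelium has a luminal layer, which faces the lumen and makes milk, and a basal layer of contractile myoepithelial cells, which rests on the basement membrane. Luminal cells are known by the keratins KRT8, KRT18 and KRT19, basal cells by KRT5, KRT14 and the transcription factor p63. NMuMG cells are widely used to study the epithelial to mesenchymal transition, in which TGF-beta represses junction genes such as Cdh1 and induces mesenchymal ones. The serum-free arrays show which receptor, ligand, junction and matrix genes were detected with no ligand added.

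Total RNA was read on 1-colour Illumina beadchips with 25697 probes, and 17893 genes had a probe. A probe counts as detected on an array where the deposited detection p-value, against the negative control beads of that array, was under 0.05, and a gene is detected where any of its probes is. Signals are given as percentile ranks within an array, where 100 is the brightest probe, in the order of replicates 1, 2, 3 and 4, and the rank of a gene is that of its brightest probe. Probes differ in how well they bind, so a rank says how bright a probe was and not how many transcripts one gene has against another. Where a gene had several probes, the others ranked lower on average and in some genes were undetected. The lowest detected rank was 57.3, 57.6, 51.4 and 57.6, so ranks under about these values are background and have no order.

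Replicate 3 stood apart from the rest in brightness. Its mean signal was 283 scanner units, against 149, 165 and 160 on replicates 1, 2 and 4. It detected 48.6% of probes, where the others detected 42.4% to 42.7%. Ranks of the 9032 probes detected on all 4 arrays correlated with rho between 0.973 and 0.976 among replicates 1, 2 and 4, and between 0.925 and 0.939 for replicate 3 against each of them, as a description across probes that are not independent. Mean beads per probe were 39.6 ± 0.443 (SD, n = 4), and no pair of arrays was identical.

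Of the 17893 genes, 6995 were detected on all 4 arrays (39.1%), 3763 on 1 to 3 arrays and 7135 on none. Without replicate 3, 7028 genes were detected on the 3 arrays left, and 793 genes were detected on replicate 3 alone. A list made mostly of genes that every cell uses, and genes that epithelium should lack, give the scale for these shares. Of 62 cytosolic ribosomal protein genes, 53 were detected on all 4 arrays, with a median rank of 99.2, and 5 were detected on none. Among these 5 were Rpl17, Rps23 and Rplp2, which encode core ribosomal proteins, so a gene that was not detected may still be expressed. The rest, Rpl39l and Rpl3l, are paralogues that the list holds because it was taken by symbol. Of 1077 olfactory receptor genes, 1 was detected on all 4 arrays and 906 on none, with a median rank of 26.4. Detection on all 4 arrays is therefore used below as the call, and detection on 1 or 2 arrays is given as a value and not read as expression.

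Keratins of simple, luminal epithelium ranked near the top of every serum-free array. Of 18 luminal markers with a probe, 8 were detected on all 4 arrays and 8 on none. The share detected on all 4 was 44.4% beside the 39.1% of all genes. The median rank of the 18 was 38.3 against 44.7 over all genes, both in the background range where ranks have no order. Krt8, the type II keratin of simple epithelia, ranked at 99.7, 99.7, 99.9 and 99.7, from raw signals of 2753, 3344, 16143 and 2999 scanner units. Its partner Krt18 ranked at 98.3, 98.2, 99.6 and 99.1, Krt19 at 97.5, 97.9, 97.9 and 97.8 and Krt7, of simple ductal epithelia, at 90.8, 87.9, 94.2 and 89.9. All 4 arrays placed these keratins far above the detection limit, and replicate 3 gave the highest rank for Krt8, Krt18 and Krt7. Krt20, a keratin best known from intestinal and urothelial cells, ranked at 96.8, 97, 98.5 and 96.7. Muc1, an apical mucin, stood at 98.1 ± 0.777 (SD, n = 4) and Cd24a, a surface glycoprotein of luminal cells, at 75.6 ± 4.36. Foxa1, a pioneer factor of luminal cells, was detected on all 4 arrays at 73.9 ± 3.97.

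Most genes of hormone-sensing and milk-making luminal cells named here were detected on no array. Gata3, which maintains the luminal fate, ranked at 25.8, 6.77, 46.5 and 8.23 and was detected on no array, as was Elf5, the alveolar fate factor, at 39.4, 47.2, 21.4 and 47.3. The oestrogen receptor gene Esr1 ranked at 48.1, 27, 12.9 and 21.1 and was detected on none, and the progesterone receptor gene Pgr was detected on replicate 1 alone. Prlr, the prolactin receptor gene, and Aldh1a3 and Cited1, which mark luminal subsets, were detected on none. Areg, of the same luminal list, went the other way and was detected on all 4 arrays at 95.2 ± 0.785, as Foxa1 was above. Of 11 milk protein and secretory genes, 1 was detected on all 4 arrays (9.09%) and 7 on none (63.6%), beside 39.1% and 39.9% of all genes. Without replicate 2, the first count was 2. The gene detected was Plin2, which coats lipid droplets in many cell types, at 79.7 ± 5.45. The caseins Csn2 and Csn1s2a, Wap and Lalba were detected on no array, Csn3 on replicate 3 alone, and Xdh, needed for milk fat secretion, on 3 arrays. Epcam and Kit, further luminal markers, are not analysed here.

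Basal markers were mostly undetected. Of 12 with a probe, 1 was detected on all 4 arrays (8.33%, beside 39.1% of all genes) and 9 on none, and their median rank was 26.7. Without replicate 1, the first count was 2. Krt5 ranked at 0.615, 26.3, 1.42 and 28.3 and Trp63, the gene of p63, at 35.2, 38.8, 1.6 and 0.0623, both below the detection limit on every array. Krt14 ranked at 65, 27, 44.4 and 60.4 and was detected on replicates 1 and 4. The basal marker detected on all 4 arrays was Mylk, a myosin light chain kinase gene that smooth muscle and other contractile cells express, at 73.1, 68.2, 69.6 and 74.5. Acta2, smooth muscle actin, was detected on 3 arrays, while Myh11, Cnn1 and Tagln, the other contractile genes of the list, were detected on none.

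**Figure D1:**
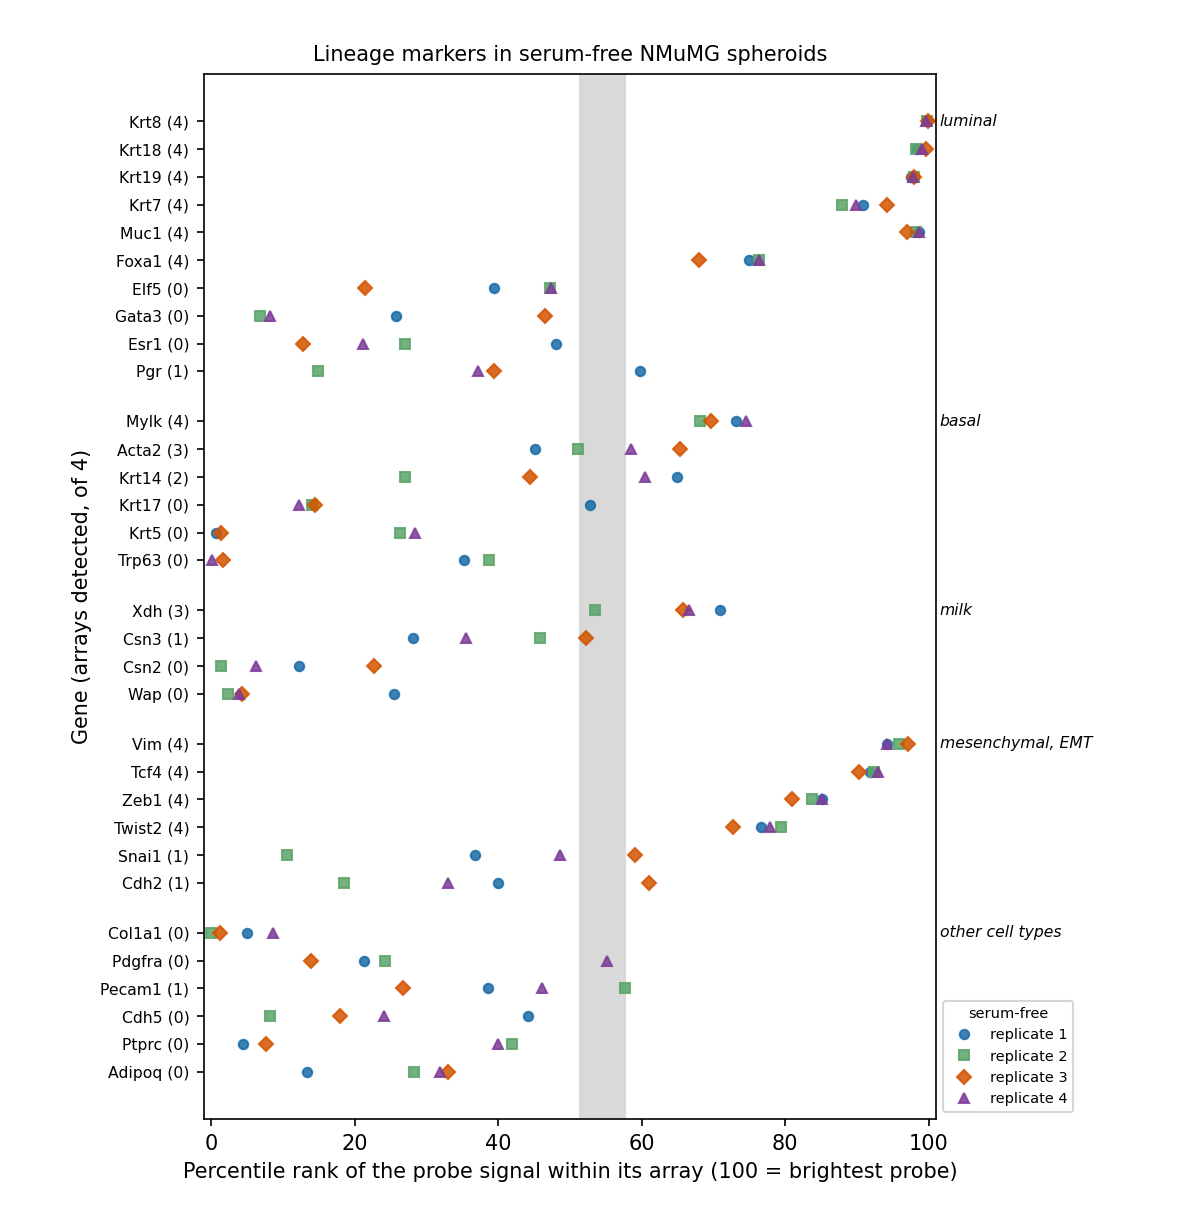
Percentile rank of each lineage marker on the 4 serum-free arrays (x axis, 100 is the brightest probe of an array), 1 point per replicate, with the number of arrays that detected any probe of the gene in parentheses. The grey band spans the lowest detected ranks of the 4 arrays (51.4 to 57.6): Krt8, Krt18, Krt19 and Vim lie far to its right, while Krt5, Trp63, Gata3 and Col1a1 lie to its left on every array.

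Defining markers of other cell types were detected on fewer than 4 arrays, with 3 exceptions. Of 56 genes that mark fibroblasts, endothelium, leukocytes, adipocytes, or nerve and muscle, 3 were detected on all 4 arrays (5.36%) and 44 on none (78.6%), beside 39.1% and 39.9% of all genes. None of the 11 fibroblast markers was detected on all 4 arrays and 10 were detected on none, with Col1a1 at 4.94, 0.0195, 1.27 and 8.67 and Pdgfra at 21.3, 24.3, 13.8 and 55.2. Of the 10 endothelial markers none was detected on all 4 arrays and 7 on none, among them Cdh5, while Pecam1 was detected on replicate 2 alone. Of 13 leukocyte markers, 9 adipocyte markers and 13 nerve and muscle markers, 1 each was detected on all 4 arrays and 10, 8 and 9 on none. Ptprc, the pan-leukocyte gene, ranked at 4.49, 42, 7.58 and 39.9 and Adipoq, the adipocyte hormone gene, at 13.4, 28.3, 33 and 31.9, both undetected. The 3 exceptions were Cd14, a lipopolysaccharide co-receptor, at 96.7, 96.8, 97.6 and 96.5, Pparg, a lipid-sensing nuclear receptor, at 86.5, 89.6, 88.6 and 89.8, and Mbp, whose locus also makes transcripts outside myelinating cells, at 88.5, 86.8, 81.6 and 84.6. Of 3 probes each, 1 of Mbp and 2 of Pparg were detected on all 4 arrays. In RNA from whole spheroids a small number of cells with much of a transcript and many cells with little of it cannot be told apart.

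Some genes of mesenchymal cells were detected beside the keratins. Of 14 mesenchymal and EMT genes with a probe, 5 were detected on all 4 arrays (35.7%, beside 39.1% of all genes), 7 on 1 to 3 arrays and 2 on none. Vim, the intermediate filament vimentin, ranked at 94.2, 95.8, 97.1 and 94.2. Zeb1, a repressor of Cdh1, ranked at 85.1, 83.7, 80.9 and 85.1, Twist2, a bHLH factor, at 76.6, 79.4, 72.7 and 77.8, and Tcf4, an E protein, at 91.8, 92.4, 90.2 and 92.9. These 4 genes lay above the detection limit on every array, and replicate 3 gave the lowest of the 4 ranks for Zeb1, Twist2 and Tcf4. S100a4, a calcium-binding protein gene, was the 5th at 69.4 ± 6.55. Snai1 and Cdh2, which encode the repressor Snail and N-cadherin, were detected on replicate 3 alone, at ranks of 36.8, 10.6, 59.1 and 48.6 and of 39.9, 18.5, 61.1 and 33 on the 4 arrays. Zeb2 was also detected on replicate 3 alone, Twist1 and Prrx1 on 2 arrays, and Foxc2 on none. Snai2 and Fn1 are not analysed here.

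Of 23 epithelial transcription factor genes, 11 were detected on all 4 arrays (47.8%, beside 39.1% of all genes), 5 on 1 to 3 and 7 on none, and their median rank was 54.2. At a detection p under 0.01 the first count was 9. Cebpb, a factor of mammary epithelial growth and differentiation, ranked at 97.2 ± 0.66, and Klf5 and Klf4, Krüppel-like factors of epithelial growth and differentiation, at 97 ± 0.583 and 87.7 ± 3.54. Elf3, an epithelial ETS factor, stood at 87.4 ± 1.66 and Sox9, a progenitor factor, at 76.3 ± 3.27. Tfap2a, Ovol2, which represses Zeb1 in epithelia, and Esrp2, an epithelial splicing regulator, were detected on all 4 arrays with mean ranks from 59.7 to 67.9. Tfap2a and Ovol2 each had 3 probes on the array, of which 1 was detected on all 4 arrays and the other 2 on none. Grhl2, a factor that maintains Cdh1 expression, ranked at 22.9, 53.9, 7.73 and 17.2 and was detected on none, and Grhl3, Ovol1 and Tfap2c were undetected too. Grhl1 was detected on 3 arrays and Esrp1 on 1.

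Promoters of genes detected on more arrays held more CG dinucleotides. RefSeq promoters (GRCm38.p6, 250 bases before to 50 after the start) were taken for the 10985 protein-coding genes with a probe and 1 listed start. The median number of CG dinucleotides per 300 bases was 5 for the 4416 genes detected on no array, 9, 16 and 21 for genes detected on 1, 2 and 3 arrays, and 22 for the 4323 genes detected on all 4. The observed over expected CG ratio was above 0.6 for 27.7% of promoters of undetected genes and 80.1% of promoters of genes detected on all 4 arrays. Without olfactory and vomeronasal receptor genes, a choice made after seeing the data, the first share was 34.2% and the second 80.1%. The motif TATAAA, searched on both strands, stood in 20.3% of promoters of undetected genes, 7.49% of those detected on all 4 arrays and 13.6% of all 10985. Without the same receptor genes these shares were 15.2%, 7.47% and 10.9%. The genes of a group share base composition and annotation, and these shares are a description with no test.

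The promoters of Krt18, Krt8, Krt5 and Csn2 are shown as 2 detected and 2 undetected lineage genes, with CG in capitals. They lie on chromosome 15 at chr15:102027966-102028265, at chr15:102004293-102004592 and at chr15:101712856-101713155, and on chromosome 5 at chr5:87699376-87699675, on the plus strand for Krt18 and the minus strand for the others.
Krt18: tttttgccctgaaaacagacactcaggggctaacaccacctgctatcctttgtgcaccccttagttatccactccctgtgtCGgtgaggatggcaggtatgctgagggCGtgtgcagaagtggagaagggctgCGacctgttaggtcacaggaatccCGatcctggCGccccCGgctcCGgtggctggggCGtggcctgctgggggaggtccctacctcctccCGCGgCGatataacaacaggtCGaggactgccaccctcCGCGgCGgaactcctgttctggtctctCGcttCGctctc
Krt8: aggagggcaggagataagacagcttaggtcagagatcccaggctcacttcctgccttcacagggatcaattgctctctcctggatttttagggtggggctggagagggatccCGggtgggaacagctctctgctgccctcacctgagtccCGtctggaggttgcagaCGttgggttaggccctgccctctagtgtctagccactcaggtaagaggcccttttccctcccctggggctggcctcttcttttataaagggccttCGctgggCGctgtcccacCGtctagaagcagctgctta
Krt5: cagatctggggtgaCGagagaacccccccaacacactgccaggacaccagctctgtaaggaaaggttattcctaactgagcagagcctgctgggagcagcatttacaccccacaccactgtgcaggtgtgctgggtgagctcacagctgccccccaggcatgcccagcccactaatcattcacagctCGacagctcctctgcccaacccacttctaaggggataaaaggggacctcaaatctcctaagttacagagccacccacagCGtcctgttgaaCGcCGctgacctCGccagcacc
Csn2: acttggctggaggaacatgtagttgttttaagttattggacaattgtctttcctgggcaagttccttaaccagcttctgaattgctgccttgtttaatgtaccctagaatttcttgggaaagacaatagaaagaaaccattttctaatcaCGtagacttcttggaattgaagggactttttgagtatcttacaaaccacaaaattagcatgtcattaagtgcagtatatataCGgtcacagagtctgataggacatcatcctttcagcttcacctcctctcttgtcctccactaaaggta
Krt18 held 17 CG dinucleotides and Csn2 held 2, within the quartiles of genes detected on all 4 arrays (15 to 29) and of undetected genes (2 to 16). Krt8 and Krt5 held 6 each although Krt8 was among the brightest genes of the arrays and Krt5 was undetected, so the CG count was equal for a detected and an undetected keratin. Of the 4, only Krt8 held an exact TATAAA match, which began at position -1 from its listed start. Variants of the motif were not searched.

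**Figure D2:**
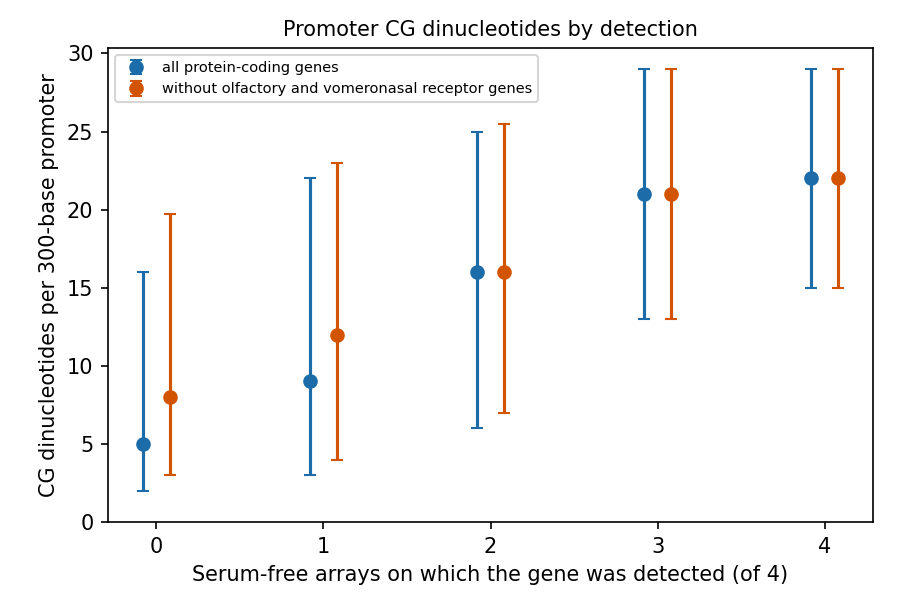
Number of CG dinucleotides per 300-base promoter (y axis) by the number of serum-free arrays on which the gene was detected (x axis). Points are medians and bars run from the 25th to the 75th percentile over genes, for all protein-coding genes and without olfactory and vomeronasal receptor genes: the median rises from 5 or 8 for undetected genes to 22 for genes detected on all 4 arrays.

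Some junction genes of every class of contact were detected on all 4 arrays. Of 92 junction and polarity genes with a probe, 39 were detected on all 4 arrays (42.4%), near the 39.1% of all genes, and 29 on none. Of 15 adherens junction genes, 6 were detected on all 4 arrays (40%) and 2 on none. Their median rank was 43.1 against 44.7 over all genes, both in the background range where ranks have no order. Cdh1, which encodes E-cadherin, ranked at 96, 94.4, 97.7 and 96. Its cytoplasmic partners Ctnnb1 and Ctnna1, beta- and alpha-catenin, ranked at 99.6, 99.3, 99.7 and 99.6 and at 99.5, 99.6, 99.4 and 99.6. Both catenins were thus among the brightest probes of each array, and Cdh1 ranked below them on every array. Of the 3 probes of Ctnnb1, 2 were detected on all 4 arrays and 1 on none. Vcl, vinculin, and the nectin genes Nectin2 and Nectin3 were detected on all 4 arrays at 95.8 ± 0.973, 91.7 ± 1.55 and 91 ± 1.65. Ctnnd1, p120-catenin, was detected on replicate 3 alone and Jup, plakoglobin, on 2 arrays, each with 1 probe. P-cadherin (Cdh3) and VE-cadherin (Cdh5) were undetected.

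Among claudins, which set the tightness of the paracellular seal, Cldn2, a pore-forming claudin of leaky epithelia, was the bright member. It ranked at 98.2, 98.4, 98.6 and 97.5, and Cldn12 at 85.7, 87.5, 92 and 88.1. Cldn9 was the only other claudin of 18 with a probe that was detected on all 4 arrays, at 64.9 ± 1.99. Cldn3, Cldn4 and Cldn7, sealing claudins of luminal mammary cells, ranked at 17.5, 19.6, 18.2 and 36.1, at 40, 50.9, 4.48 and 10.1 and at 44.3, 41.7, 55.6 and 34.6. Cldn3 and Cldn4 were detected on no array and Cldn7 on replicate 3 alone, as was Cldn1. Of the 30 tight junction genes in all, 11 were detected on all 4 arrays (36.7%) and 14 on none (46.7%), beside 39.1% and 39.9% of all genes. The scaffold genes Tjp1 and Tjp3 stood at 82.4 ± 3.78 and 72.1 ± 0.207, Ocln, occludin, at 72.5 ± 2.08 and the adhesion genes F11r and Cxadr at 86.3 ± 0.294 and 95.1 ± 1.01. Marveld2, tricellulin, was undetected, and Lsr, which recruits it, ranked at 86.2 ± 2.13.

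Desmosome and hemidesmosome genes were detected in part. Of 18 with a probe, 8 were detected on all 4 arrays (44.4%) and 6 on none (33.3%), beside 39.1% and 39.9% of all genes. The plaque and linker genes Dsp, desmoplakin, Ppl, periplakin, and Pkp2, plakophilin, ranked at 93.3 ± 1.35, 95 ± 0.591 and 92.1 ± 2.57, and the desmosomal cadherin gene Dsg2 at 81.1 ± 0.839. Its usual partner Dsc2, desmocollin, ranked at 4.28, 36.4, 4.7 and 2.09 and was undetected, as were Dsc1, Dsc3, Dsg1a and Perp. At the hemidesmosome, Itgb4, a subunit of a laminin receptor, ranked at 96.5, 96.7, 94.8 and 96.6. Plec, which links this receptor to keratin, ranked at 99, 99, 98.6 and 98.8. Plec was read by 14 probes, of which 2 were detected on all 4 arrays and 9 on none. Col17a1, the hemidesmosomal collagen, was undetected.

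The gap junction gene Gja1, connexin 43, ranked at 96.5, 96.3, 95.6 and 95.2. Panx1, a pannexin gene, stood at 79.7 ± 1.46. Of 15 gap junction genes, 4 were detected on all 4 arrays (26.7%, beside 39.1% of all genes) and 5 on none. Gjb2, connexin 26 of the lactating gland, was detected on replicate 3 alone. Of 15 polarity genes 10 were detected on all 4 arrays (66.7%, median rank 67.8, beside 39.1% and 44.7 over all genes) and 2 on none. Mark2, a polarity kinase, Llgl2 and Llgl1, of the basolateral Scribble module, and Scrib itself ranked at 98.1 ± 0.218, 96.7 ± 0.384, 93.4 ± 1.96 and 82.9 ± 1.12. Of the Par complex, Pard6a and Prkcz stood at 83.4 ± 2.08 and 82.2 ± 2.67, Pard3 was detected on 2 arrays and Prkci, atypical protein kinase C iota, on none, with 1 probe.

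**Figure D3:**
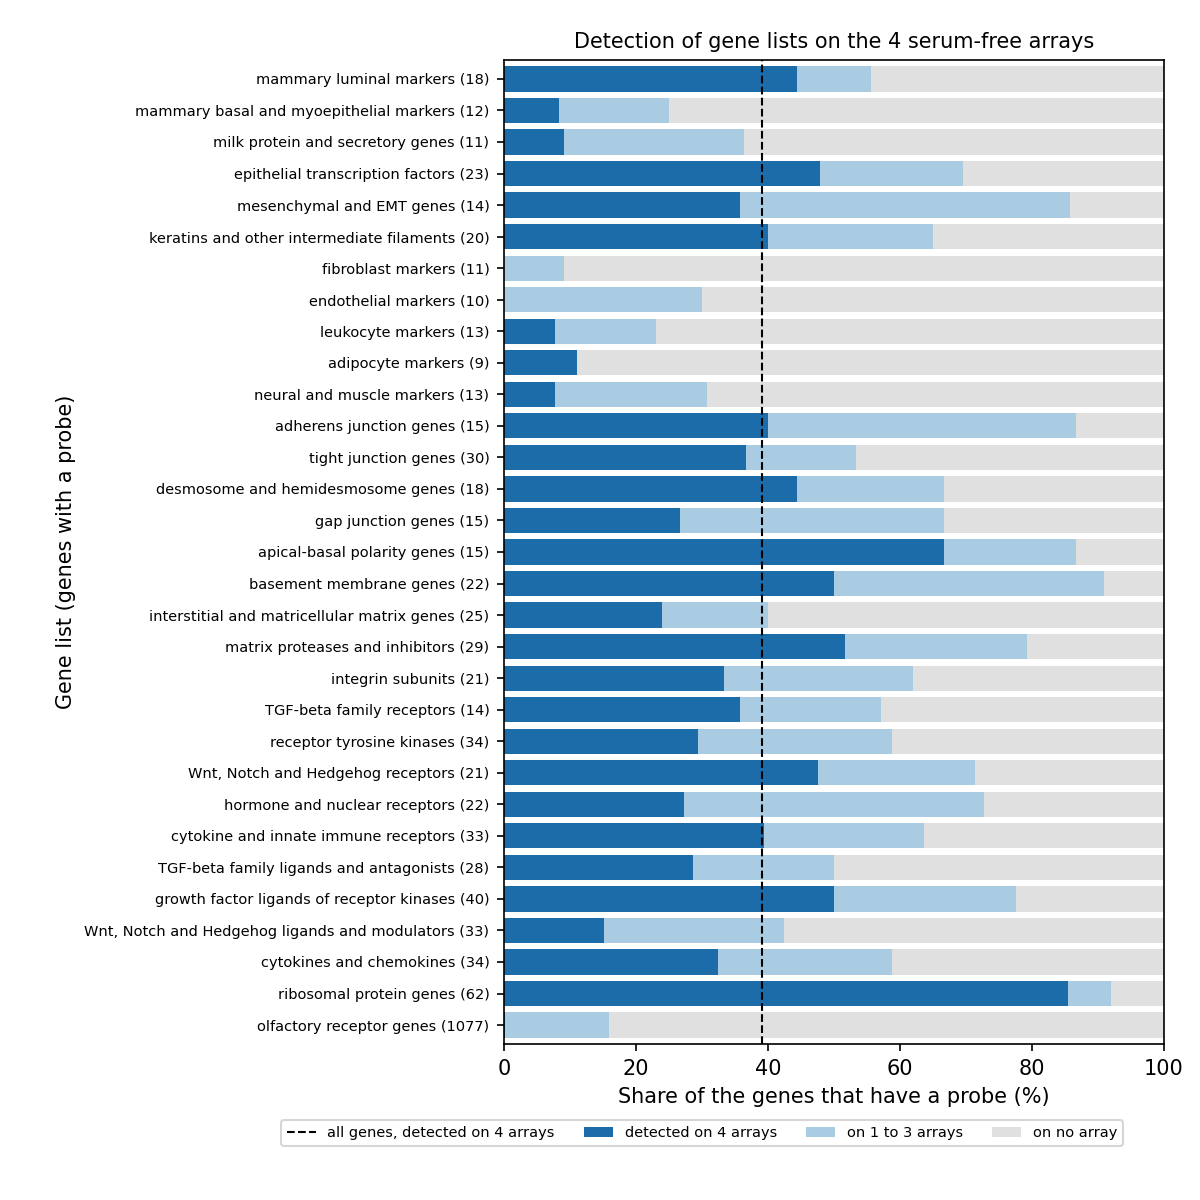
Share of the genes with a probe in each list (x axis, %) that was detected on all 4 serum-free arrays (dark), on 1 to 3 (light) or on none (grey), with the number of such genes in parentheses. The dashed line is the share of all genes detected on all 4 arrays (39.1%): ribosomal protein genes reach 85.5%, polarity genes 66.7% and basal markers 8.33%.

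Of 22 basement membrane genes with a probe, 11 were detected on all 4 arrays (50.0%) and 2 on none (9.09%), beside 39.1% and 39.9% of all genes, and their median rank was 62.6 against 44.7. Of the laminin chains, Lamb3, a beta chain of the laminin at hemidesmosomes, ranked at 92.6, 92.6, 92.7 and 90.5. Lamc1 and Lamb2 stood at 91.7 ± 0.326 and 86.7 ± 0.624. No alpha chain was detected on all 4 arrays: Lama1 was detected on none, Lama2 on replicate 1 and Lama4 on replicate 3 alone, and Lama3 and Lama5 are not analysed here. Of type IV collagens, the ubiquitous pair Col4a1 and Col4a2 ranked at 95.2, 94.1, 95.7 and 95.2 and at 85.7, 86.5, 88.6 and 86.9, and Col4a3 to Col4a6 were each detected on at most 2 arrays. The heparan sulphate proteoglycan genes Agrn, Col18a1 and Hspg2, perlecan, ranked at 99.3 ± 0.126, 97.9 ± 0.114 and 91.1 ± 0.835. Nid2 stood at 74.4 ± 2.56 and Nid1 was undetected.

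Interstitial matrix genes were detected on all 4 arrays for 6 of 25 (24.0%) and on no array for 15 (60%), beside 39.1% and 39.9% of all genes. Spp1, osteopontin, was among the brightest probes of the arrays at 99.8, 99.7, 99.9 and 99.8, from raw signals of 3330, 3816, 14124 and 4818. Ccn2 and Ccn1, matricellular genes that respond to YAP and to TGF-beta, ranked at 99.5, 99.5, 99.6 and 99.6 and at 81.7, 83.5, 87.9 and 82.9. Col6a1, Col5a1 and Fbln1 were the other genes detected on all 4 arrays, at 85.9 ± 1.53, 67.6 ± 3.64 and 66.3 ± 4.62. The fibrillar collagen genes Col1a1, Col1a2, Col3a1 and Col5a2 and the proteoglycan genes Dcn, Lum, Bgn and Vcan were detected on none, and Thbs1 on replicate 3 alone.

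Matrix proteases and their inhibitors were detected on all 4 arrays for 15 of 29 genes (51.7%, median rank 62.5, beside 39.1% and 44.7 over all genes). Mmp14, a membrane-anchored collagenase, ranked at 95.5, 95.6, 95.6 and 95.9 and Mmp13, a secreted collagenase, at 93.8, 94.5, 94.4 and 94.6. The inhibitors Timp2, Timp1 and Timp3 stood at 98.9 ± 0.14, 90.7 ± 0.65 and 70.8 ± 5.03, and Timp4 was undetected. Mmp2, the gelatinase that Mmp14 activates, and Mmp7 were undetected, and Mmp9 was detected on replicate 4 alone. Furin, a proprotein convertase that cleaves TGF-beta precursors among others, ranked at 98.4 ± 0.23. Among membrane serine proteases, Tmprss2 ranked at 89.7 ± 1.53, while St14, matriptase, and its inhibitor Spint1 were undetected, and the related inhibitor Spint2 stood at 66.3 ± 3.43. Plaur, the urokinase receptor, was detected on all 4 arrays at 88.7 ± 2.84, and Plau, urokinase, on 3.

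**Figure D4:**
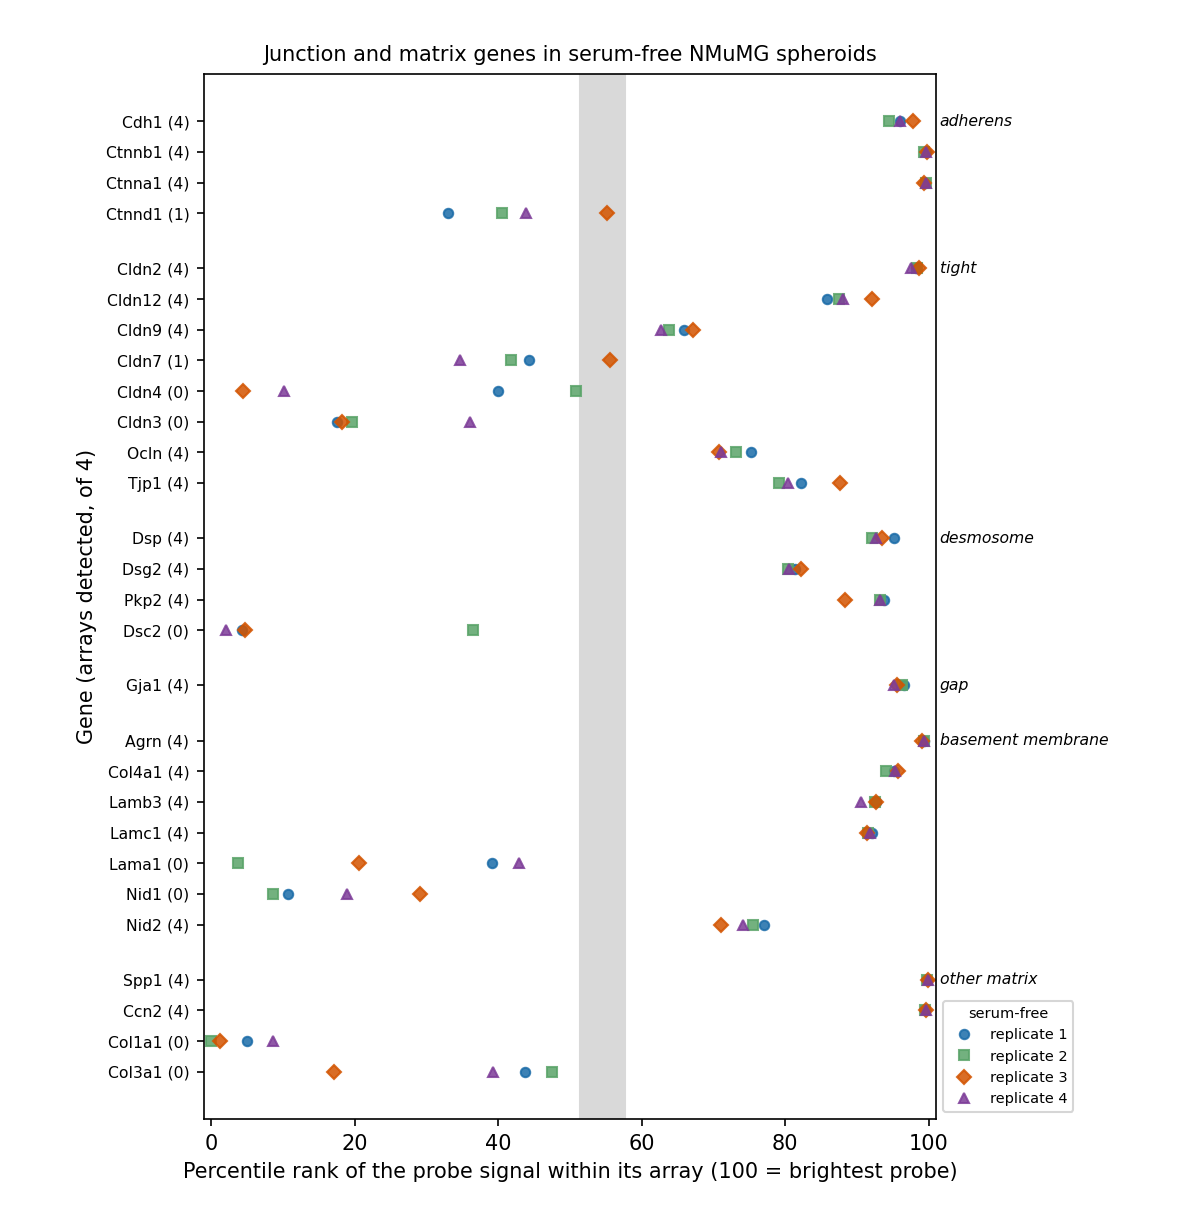
Percentile rank of junction and matrix genes on the 4 serum-free arrays (x axis), 1 point per replicate, with the arrays that detected the gene in parentheses and the lowest detected ranks of the 4 arrays in grey. Cldn2 (98.2) lies far above the band and Cldn3 and Cldn4 below it, and Spp1 and Ccn2 sit at the right edge while Col1a1 sits at the left.

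Integrins, the receptors for this matrix, were detected on all 4 arrays for 7 of 21 subunits (33.3%) and on no array for 8 (38.1%), near the 39.1% and 39.9% of all genes. Itga3, of the laminin receptor alpha-3 beta-1, ranked at 94.8, 93.9, 93.8 and 94.9. Itga6, the alpha partner of Itgb4, ranked at 67.8, 48.6, 76.1 and 65.1 and was detected on 3 arrays, with replicate 2 below the limit. Itgb6 and Itgav, whose product alpha-v beta-6 activates latent TGF-beta in epithelia, ranked at 93.8, 95.1, 93.3 and 93.2 and at 80.9, 79, 75.5 and 79.6. Itgb1, Itgb5 and Itga2, a collagen receptor subunit, stood at 78.1 ± 5.18, 80.8 ± 4.15 and 76.6 ± 3.35. Leukocyte subunits Itgam, Itgax and Itgb7 were undetected, and Itgb2 was detected on 2 arrays.

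For the TGF-beta family, type I and type II receptor genes were detected in spheroids that had received no added ligand. Ligands of this family bind a type II receptor, which activates a type I receptor that in turn phosphorylates SMAD proteins. Of 14 receptor genes, 5 were detected on all 4 arrays (35.7%) and 6 on none (42.9%), near the 39.1% and 39.9% of all genes. The type I and type II TGF-beta receptor genes Tgfbr1 and Tgfbr2 ranked at 98.5, 98.5, 97.3 and 98.4 and at 94.4, 94.2, 95.2 and 95. Of the 4 probes of Tgfbr1, 2 were detected on all 4 arrays and 1 on none, and the mean over its probes was 55.7. Of the 2 probes of Tgfbr2, 1 was detected on all 4 arrays, and the mean over both was 67.2. Acvr2b, a type II receptor of activins and GDF11, ranked at 84.4, 85.4, 78 and 83.1, while the other such gene, Acvr2a, was detected on replicate 3 alone. Acvr1b, the type I activin receptor ALK4, ranked at 10.4, 7.0, 34.4 and 29.6 and was undetected with 1 probe. On the BMP arm, Bmpr1a and Acvr1 stood at 85.6 ± 1.72 and 83.1 ± 1.89, Bmpr2 was detected on 2 arrays and Bmpr1b on none. The co-receptor genes Tgfbr3, betaglycan, and Eng, endoglin, were detected on replicate 3 alone and on none.

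Some ligand genes of the family were detected too. The list of 28 genes holds ligands, antagonists and latent TGF-beta binding proteins. Of the 28, 8 were detected on all 4 arrays (28.6%) and 14 on none (50.0%), beside 39.1% and 39.9% of all genes. The ligands among the 8 were Tgfb1, Inhba, Bmp4 and Gdf15. Tgfb1 ranked at 73, 73.1, 72.8 and 74.4, within 1.64 points on the 4 arrays, and Tgfb2 at 53.5, 63.3, 71.3 and 63.1, below the limit on replicate 1, while Tgfb3 was detected on replicate 3 alone. Inhba, the activin A subunit, ranked at 77.8, 79.3, 81.5 and 78.5, Bmp4 at 84.3, 82.3, 76.4 and 83.4 and Gdf15, a stress-induced member, at 78.6, 81.4, 79.8 and 80.9. Lefty1, an antagonist of Nodal, was detected on all 4 arrays at 79.1 ± 1.84, and Nodal itself was undetected. The latent TGF-beta binding protein genes Ltbp3, Ltbp1 and Ltbp4 stood at 93.1 ± 1.3, 70.1 ± 4.02 and 69.4 ± 2.01, and Ltbp2 was undetected. Of the secreted antagonists, Fst, follistatin, was detected on 2 arrays and Nog, Chrd and Grem1 on none. Gdf11, the gene of one of the ligands used in the study, is not analysed here.

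Receptor tyrosine kinase genes were detected on all 4 arrays for 10 of 34 genes (29.4%) and on none for 14 (41.2%), beside 39.1% and 39.9% of all genes. Axl, a GAS6 receptor often high in mesenchymal-like cells, ranked at 98.6, 98.9, 98.6 and 98.4, and Egfr at 92.7, 92.1, 90.2 and 92.1. Ddr1, an epithelial collagen receptor, ranked at 88.6 ± 2.57, Epha2 at 78.4 ± 3.99, Fgfr2 at 69.5 ± 1.8, Fgfr3 at 74 ± 1.8, Insr at 75.1 ± 2.08 and Igf1r at 67 ± 4.33. Fgfr2 was read by 3 probes, of which 1 was detected on all 4 arrays and 1 on none. Met, the HGF receptor, was detected on 2 arrays at 47.8, 65.1, 56.8 and 44.6, and Fgfr1, Pdgfra, Ddr2 and Ror2, more typical of mesenchyme, were undetected. Erbb2, Erbb3 and Erbb4 are not analysed here.

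Of 40 genes for growth factor ligands of these kinases, 20 were detected on all 4 arrays (50.0%, median rank 65.6, beside 39.1% and 44.7 over all genes). The EGFR ligands Areg, Hbegf and Btc ranked at 94.8, 95.8, 95.9 and 94.3, at 90, 90.7, 88.4 and 90.5 and at 83.6, 85, 82.6 and 84.2, while Egf, the founding member, was undetected and Tgfa was detected on 2 arrays. Areg, amphiregulin, is the family member that carries the oestrogen signal in the pubertal gland. Gas6, the AXL ligand, stood at 81 ± 1.42. Pdgfa and Pdgfb were detected at 90.5 ± 1.68 and 89.9 ± 0.615, while neither PDGF receptor gene was detected on all 4 arrays, and Vegfa and Vegfb at 89.9 ± 1.17 and 89.8 ± 0.383 beside Flt1 at 81.5 ± 1.87 and Kdr on replicate 1 alone. Of the 2 probes of Flt1, 1 was detected on all 4 arrays and 1 on none. Kitl, the KIT ligand, ranked at 87, 85.2, 65.4 and 86.1, with replicate 3 far below the other 3 arrays, and its second probe was detected on none. Hgf was detected on replicate 1 alone, and Fgf2 and Fgf10 were undetected.

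Of 21 Wnt, Notch and Hedgehog receptor genes, 10 were detected on all 4 arrays (47.6%), and of 33 ligands and modulators 5 were (15.2%), beside 39.1% of all genes, with 19 of the ligands detected on none. At a detection p under 0.01 the receptor count was 6, and with detection on at least 3 arrays the ligand count was 8. Ryk and Fzd5, Wnt receptors, ranked at 94.1 ± 0.32 and 90.7 ± 0.881, Fzd7 at 79.3 ± 1.43 and the co-receptors Lrp6 and Lrp5 at 72.4 ± 3.17 and 69.2 ± 5.19. Wnt7b, expressed by ductal epithelium, ranked at 88.3, 90, 86.8 and 89.2, Wnt4, the progesterone-induced Wnt of the gland, at 76.8, 77.8, 74 and 74.9, and Wnt7a at 73.2 ± 1.61. Notch1 ranked at 62.7, 71.5, 74.1 and 68.1 and its ligand Jag1 at 76, 76.8, 78.8 and 77.5. Shh, a Hedgehog ligand, ranked at 76, 79.7, 68.8 and 76.6, with a second probe that brought the mean over probes to 57.6. Of its receptors, Smo stood at 79.7 ± 2.22 while Ptch1, a receptor and a target of the pathway, ranked at 20, 4.57, 38.5 and 9.97 and was undetected.

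**Figure D5:**
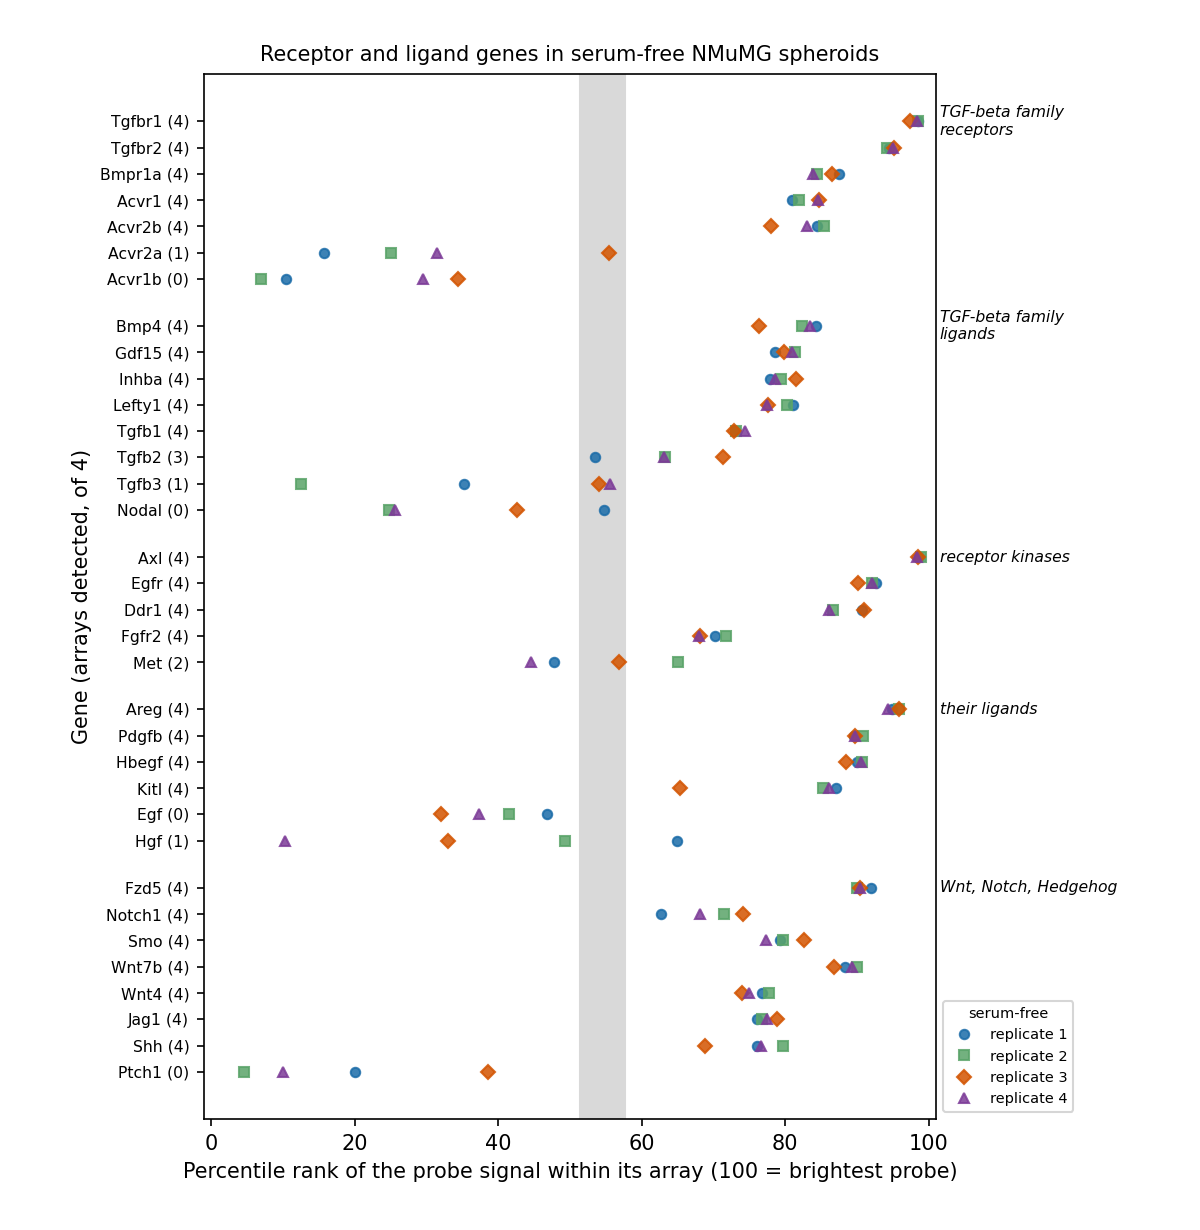
Percentile rank of receptor and ligand genes on the 4 serum-free arrays (x axis), 1 point per replicate, with the arrays that detected the gene in parentheses and the lowest detected ranks of the 4 arrays in grey. Tgfbr1, Tgfbr2, Axl and Areg lie at the right on every array, Acvr1b, Egf and Ptch1 lie below the band, and for Kitl replicate 3 (65.4) lies apart from the others.

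Nuclear and hormone receptor genes were detected on all 4 arrays for 6 of 22 genes (27.3%, beside 39.1% of all genes) and on none for 6. Besides Pparg these were Rxrb, a common heterodimer partner, at 87.2 ± 1.8, the oxysterol receptors Nr1h2 and Nr1h3 at 84.6 ± 0.948 and 81.6 ± 1.36, Ghr, the growth hormone receptor gene, at 83.3 ± 1.28 and Vdr, the vitamin D receptor gene, at 70.1 ± 2.58. Nr3c1, the glucocorticoid receptor gene, was detected on 3 arrays and Esr2 on none.

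Of 33 cytokine and innate immune receptor genes 13 were detected on all 4 arrays (39.4%, beside 39.1% of all genes). Tnfrsf12a, the TWEAK receptor gene, ranked at 97.2, 97.8, 97.9 and 97.3, Il11ra1, the IL-11 receptor, at 95.3, 95.5, 92.1 and 94.9, and the interferon gamma receptor genes Ifngr1 and Ifngr2 at 93.4 ± 0.425 and 87.2 ± 1.58. Il6st, the chain gp130 that IL-11 and IL-6 receptors share, was detected on replicate 3 alone with 1 probe. The bacterial sensors Tlr2 and Tlr4 were detected on all 4 arrays at 73.3 ± 2.75 and 67.2 ± 2.57, beside Cd14 above, and Cd40, Cxcr4 and Csf1r were detected on none.

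Cytokine and chemokine genes were detected on all 4 arrays for 11 of 34 (32.4%, beside 39.1% of all genes) and on none for 14. Cxcl1, a neutrophil chemokine, ranked at 98.3, 98.6, 97.5 and 98.5, and Ccl2 and Ccl7, monocyte chemokines, at 92.1, 90.5, 97.3 and 93.9 and at 82.2, 87.9, 90.1 and 85. Cxcl16, Cx3cl1 and Ccl25 stood at 91 ± 0.389, 77.6 ± 1.18 and 69.1 ± 6.11. The epithelial alarmin Il33 ranked at 89.4, 86.4, 92.8 and 84.6, and Il18 and Il15 at 82.1 ± 2.04 and 78.8 ± 5.39. Csf1, the macrophage growth factor, stood at 68.7 ± 1.93, and Il11 was detected on 3 arrays. Il1a, Il1b, Tnf, Tslp, Cxcl2 and Cxcl10 were detected on no array, and Il6 on replicate 1 alone.

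The ranks of detected genes were close from array to array. For the 6995 genes detected on all 4 arrays the highest and the lowest rank of a gene differed by a median of 3.89 percentile points, against 31.7 for the 7135 undetected genes. The call keeps most ranks of the former above the detection limit, and ranks of the latter have no order. Part of this contrast therefore follows from the call. Replicate 3 lay over 10 points above all of the other arrays for 18 of the 6995 genes and over 10 points below them for 29, and for replicates 1, 2 and 4 the 2 counts together came to 18, 12 and 11. Among listed genes detected on all 4 arrays, replicate 3 lay over 5 points above the others for Epha2, Ltbp1, Plin2, S100a4 and Tjp1, and over 5 points below them for 12 genes, among them Kitl (by 19.8), Il15 (by 9.43) and Fbln1 (by 7.78). The part of array brightness in these gaps was not tested. Leaving out replicate 3 changed 2 of the list counts, by 1 gene each, in the Wnt, Notch and Hedgehog receptors and ligands.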

How the data were processed

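Bead signals were deposited by the authors as intensities, not normalized, with a detection p-value, a bead count and a bead standard error for each probe, per the file headers. The authors' processed values, taken as log2 from their range, came with lumi in the submitters' processing notes, with no version or role given there, and their log base is not stated. Within each serum-free array they ranked the probes of the fixed genes as the bead signals did. No depth applies to arrays, and their number (4) limits the precision.

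A gene was called detected on an array where any of its probes had a detection p-value under 0.05, and its percentile rank was that of its probe with the highest mean rank over the 4 arrays. Of 18138 array symbols, 14307 were current in RefSeq, 2906 were matched as synonyms and 904 were kept as on the array. Another 21 symbols that had turned into dates, on 31 probes, were left unnamed. Members and gene lists (29 lists, 601 genes, 561 with a probe) were chosen with earlier results of these data known. Named genes were a fixed set of 61, of which 59 had a probe, up to 4 of the highest-ranking members of each list, members detected on no array, the 20 highest-ranking genes leaving out ribosomal protein genes, and the 10 listed genes with the widest range. Other list members are named with their values or detection counts, and some members counted in the lists are not reported here by name. No groups were compared and no test was run, so no p-value is given beyond detection.

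Alternatives were a detection p under 0.01, Benjamini-Hochberg adjustment of it within an array, the brightest probe alone, detection on at least 3 arrays, other ways to rank, and each replicate left out. Counts and ranks were made in Python 3.11.15 with pandas 2.3.3 and tested on simulated data, and neqc values with limma 3.58.1 in R 4.3.3 (offset 16).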

Additional observations from a re-analysis of the deposited data

Results flagged for a closer look

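Of 159 values with 4 arrays (156 named genes and 3 properties of the arrays), 16 had 1 array far from the others by Dixon's criterion. Chance flags about 1 in 20 unselected, independent groups. These genes share the arrays, and 10 of them, Flt4 included, were picked for their wide range. The count is therefore not read against that rate. Replicate 3 set the mean signal (283 scanner units) and the share of probes detected (48.6%) apart. Among genes, replicate 3 was the array apart for 11 and replicate 4 for 3.

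Replicate 3 gave the highest rank for Krt8 (99.9), for Sparc, a matricellular glycoprotein gene of the basement membrane (97.7), and for Ltbp3, which binds latent TGF-beta (95). It gave the lowest rank for Itgb4 (94.8), Tgfbr1 (97.3), Kitl (65.4), Llgl1 (90.5), Pard6a (80.3), Il11ra1 (92.1), Eef1a1 (99.98) and Cstb (99.8). Kitl differed from the nearest other array by 19.8 percentile points. For Eef1a1, Cstb and Krt8 the whole range over the 4 arrays was 0.0195, 0.105 and 0.276 points, so the flag marks a gap that is small in rank. Replicate 4 gave the lowest rank for Lamb3 (90.5) and for Flt4, a VEGFC receptor (3.69), and the highest for Cldn3 (36.1), and of these Cldn3 lay under the detection limit on every array. The part of the brightness of replicate 3 in these gaps was not tested.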

How the results depend on the processing

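The count of genes detected on all 4 arrays, 6995, was 6542 at a detection p under 0.01, 6651 after Benjamini-Hochberg adjustment, 6934 with the brightest probe alone, 7691 with detection on at least 3 arrays, and 7028 to 7259 with 1 replicate left out. Of the list counts, 4 moved by over 1.5 times under an alternative. Detection on at least 3 arrays gave 2 basal markers, 2 milk genes and 8 Wnt, Notch and Hedgehog ligands, against 1, 1 and 5. A detection p under 0.01 gave 6 Wnt, Notch and Hedgehog receptors against 10. With 1 replicate left out the basal count was 1 or 2, with 2 reached without replicate 1, and the milk count 1 or 2, with 2 reached without replicate 2. The median range of ranks over all genes was 19.8 points, 3.89 over genes detected on all 4 arrays, and 13.2 to 14.1 with 1 replicate left out, where it spans 3 arrays and not 4. Of the 59 fixed genes, mean ranks moved by less than the SD between arrays for 58 with neqc values (not Cldn3, at 13.8). With the mean over all probes this held for 46, the largest shift being Tgfbr1 from 98.2 to 55.7. Leaving out 1 of 4 arrays cannot move a mean by as much as their SD, so that comparison decides nothing. The largest such shift was 9.39 points, without replicate 2. The authors' processed values gave these genes the same ranks as the bead signals, so no mean rank moved there. Ranks taken among probes detected on at least 1 array moved for all 47 genes with a value, since that set leaves out the dim probes. Dim genes are limited by the background of each array, and a probe may miss its gene. No paired analysis was possible because no groups were compared.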

Other observations

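Of the 20 genes with the highest mean rank on the serum-free arrays, leaving out ribosomal protein genes, 8 were gene models named LOC or Gm on the array and 12 had a gene symbol. The lowest mean rank among the 20 was 99.9. The 12 were Eef1a1, a translation elongation factor gene, Ppia, cyclophilin A, Fth1, ferritin heavy chain, Mt1, metallothionein, Ubb, ubiquitin, Anxa2 and Anxa3, annexins, Atp5g3 and Atp5b, ATP synthase subunits, S100a11, a calcium-binding protein gene, Cstb, a protease inhibitor gene, and Npm1, nucleophosmin. Raw signals of Fth1 were 6041, 8438, 18345 and 7694 scanner units on replicates 1 to 4, and those of Atp5g3 were 7445, 7999, 10168 and 7478. Both were brightest on replicate 3, Fth1 by a larger factor than Atp5g3.

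Of 20 keratin and other intermediate filament genes, 8 were detected on all 4 arrays (40%, beside 39.1% of all genes) and 7 on none. Krt23, an epithelial keratin of limited known role, ranked at 73.9, 76.3, 68.9 and 74.3, with replicate 3 the lowest, and Krt80 at 43.2, 63.1, 46.3 and 23.4, detected on replicate 2 alone. Krt17, of basal and stressed epithelium, was detected on none.

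The 10 listed genes with the widest range over the arrays were Ehf, Itgb3, Lama2, Flt4, Lepr, Pdgfd, Gja3, Bmp5, Hgf and Fabp3, none of them detected on all 4 arrays. Ehf, an epithelial ETS factor gene, ranked at 47, 31.4, 1.97 and 66.4 and was detected on replicate 4 alone, and Lepr, the leptin receptor gene, at 48, 30.4, 5.02 and 62.1, detected on the same array. Bmp5 ranked at 18.7, 65.9, 52.1 and 10.7 and was detected on replicates 2 and 3. Flt4 ranked at 60.9, 51.8, 54.1 and 3.69 and was detected on replicates 1, 3 and 4, on replicate 4 through another probe.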
